A study of Homo sapiens with 8 samples.

Results

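The 10 genes described here encode cytokines and chemokines that epithelial cells secrete: IL6, CXCL8, CXCL1, CXCL2, CXCL3, CXCL5, CCL2, CCL20, IL32 and LIF. They were chosen by name, as the rows of the deposited count table whose Ensembl identifiers carry these symbols, among 60664 genes in the table. All 10 had counts in at least 1 library, and all 10 were tested. The cells were A549, an established human lung adenocarcinoma line of alveolar epithelial origin, and the series held 8 RNA-seq libraries, 2 for each of 4 groups. Untreated cells received no agent. IFN-γ-treated cells were given interferon-γ at 20 ng/mL, cells of the AX-0085 group were given the kinase inhibitor AX-0085 at 0.5 μM, and the fourth group was given both. IFN-γ was applied for 24 h before AX-0085 was added, and cells were harvested after another 24 h. Hence the comparison of both agents with IFN-γ alone asked what AX-0085 did to cells already exposed to the cytokine. All groups came from 1 cell line, and a vehicle for AX-0085 is not given in the sources used here. In such bulk RNA, fewer producing cells and less RNA per cell cannot be told apart.

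Chemokines are small secreted proteins that attract leukocytes through receptors on their surface. CXCL1, CXCL2, CXCL3, CXCL5 and CXCL8 are CXC chemokines of the ELR type, which draw neutrophils through CXCR1 and CXCR2. CCL2 attracts monocytes through CCR2, and CCL20 attracts cells that carry CCR6. IL6 and LIF belong to the cytokine family that signals through IL6ST (gp130) and STAT3, and IL32 is an inflammatory cytokine without close relatives. In epithelial cells, many of these genes are under the control of NF-κB, AP-1 and C/EBP factors, whereas IFN-γ acts mainly through JAK kinases. Their transcripts are often short-lived and are bound by ZFP36-family proteins that promote decay.

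Total counts ranged from 20672828 to 29978251 per library, so that 3 counts, taken as the detection floor, corresponded to between 0.0959 and 0.158 CPM (counts-per-million after TMM scaling). This floor covers counting error only. The replicates of a group differed by more than sampling noise, and the labels do not say whether they came from separate cultures, so the p-values measure the spread between these samples. CD274, which encodes PD-L1 and is the target of the study, had 3 and 5 counts without treatment, 104 and 161 under IFN-γ, 3 and 10 with AX-0085, and 14 and 10 in the group given both. Of its exon bases, 87.8% lie within the span of another annotated gene. The leukocyte marker CD3E was at 0 counts in every library, PTPRC reached at most 1 count and LYZ at most 4, whereas ITGAM had 30 to 73. CD68 was also at 0, but 100% of its exon bases lie within other genes. The 6 leukocyte markers summed to between 1.18 and 2.48 CPM. The summed level of 6 epithelial markers, mostly KRT8 and KRT18, was 6427 and 6884 CPM without treatment. It was 3400 and 3227 with AX-0085 alone, 2884 and 2576 with IFN-γ alone, and 3663 and 3609 under the combination. The sum was thus highest in untreated cells, as were KRT8 and KRT18 themselves. The other markers, KRT19, EPCAM, CDH1 and CLDN4, had higher means with AX-0085 alone than without treatment. EPCAM was at 3.35 CPM in untreated cells and 8.47 with AX-0085. CDH1 was at 36.0 CPM in untreated cells, 51.7 with AX-0085 and 81.2 with both agents. With IFN-γ alone all 6 were lower than in untreated cells. Mitochondrial genes took 3.55% and 2.72% of the counts without treatment, 4.12% and 5.73% with AX-0085, 1.71% and 1.82% under IFN-γ, and 2.87% and 3.43% under the combination, lowest in both IFN-γ libraries. The part of either measure in the results below was not tested.

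Per length of transcript, CXCL5 had the highest mean level in every group. In untreated cells it had 4489 and 3186 counts, or 139 ± 13.3 CPM (SD, n = 2, as for all levels below). Since reads per gene scale with length, levels of different genes were compared as CPM per kilobase of exon. On that scale CXCL5 reached 57.1 ± 5.45 in untreated cells, followed by LIF at 15.5 ± 0.659. CCL2 at 3.03 ± 0.216 and CXCL2 at 2.96 ± 0.564 came next, and the ranges of their libraries overlapped. CXCL1 at 1.88 ± 0.161, IL32 at 1.74 ± 0.504 and CXCL3 at 1.28 ± 0.235 formed a further run in which each overlapped its neighbour. CXCL8 at 0.636 ± 0.0133 and CCL20 at 0.101 ± 0.0339 lay below, and IL6 was at 0. Together the 10 genes held 7013 and 5201 counts in the untreated libraries, that is 241 and 211 counts-per-million of the raw total, without TMM scaling. With the length of a single reference transcript in place of all exon bases, IL32 moved up to rank 4 and CXCL1 down to rank 7, while CXCL5 and LIF stayed first and second.

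With IFN-γ the order changed below the first places. CXCL5 stood at 168 ± 20.2 CPM per kilobase, LIF at 45.1 ± 0.0761, CXCL2 at 33.6 ± 0.525 and IL32 at 16.4 ± 2.96, and no neighbours in the order overlapped. CXCL3 followed at 7.61 ± 0.461 and CXCL8 at 3.81 ± 0.0693. CXCL1 went from rank 5 to rank 7, at 1.26 ± 0.242, and CCL2 from rank 3 to rank 8, at 0.897 ± 0.00524. IL6 at 0.6003 ± 0.0193 and CCL20 at 0.421 ± 0.0605 were lowest. By transcript length IL32 ranked second, above LIF and CXCL2. With both agents CXCL5 at 8.92 ± 0.355 and LIF at 8.22 ± 0.654 CPM per kilobase overlapped. On the same unscaled basis the members' summed counts were 631 and 719 with IFN-γ, 68.7 and 72.6 with AX-0085, and 68.7 and 58.8 under the combination. The plot of members by library shows the TMM-scaled CPM of each gene.

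**Figure D1:**
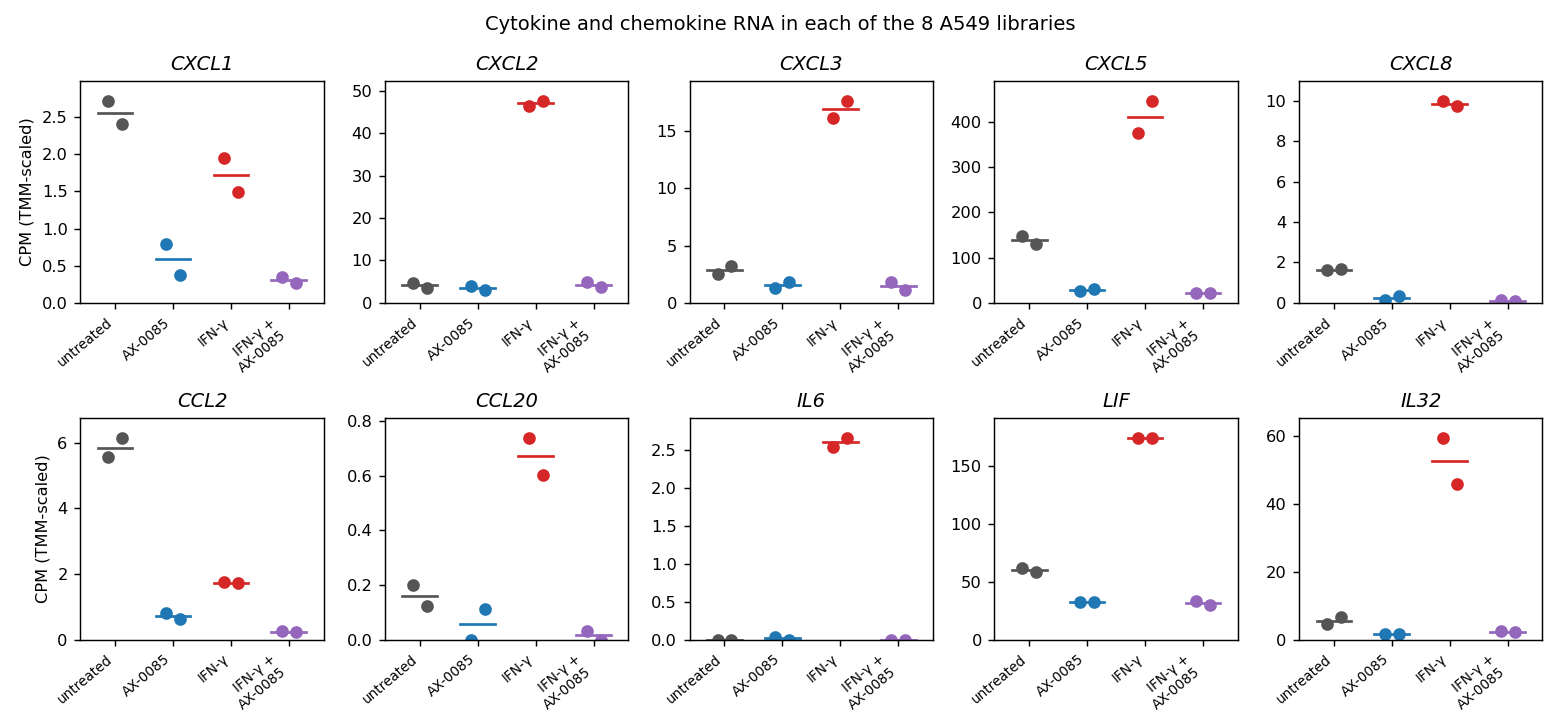
CPM (counts-per-million, TMM-scaled; vertical axes, each starting at 0) of the 10 genes in each of the 8 libraries. Points are single libraries and bars are means of 2. CXCL2, CXCL3, CXCL5, CXCL8, CCL20, IL6, LIF and IL32 were highest in both IFN-γ libraries, whereas CXCL1 and CCL2 were highest in both untreated libraries.

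The promoters of 8 of these genes share a sequence motif. Members and motifs were chosen with earlier results of these data known, and NF-κB control of many of these genes was known beforehand. The count of matches is therefore a description and not independent support. RefSeq promoter windows of GRCh38.p14, from 250 bases before to 50 after each transcription start, were at hand for 8 members, all but CCL2 and LIF. The NF-κB motif was searched as GGNNTTTCC on both strands. It occurred in 8 of 8 members, and in 6.26% of 35116 promoters of the same length. The STAT motif TTCNNNGAA occurred in CXCL5 alone of the 8 members and in 7.66% of all promoters, and in CXCL5 it overlapped the NF-κB match. The AP-1 motif TGANTCA was found in CXCL8 (7.71% of all promoters), and the C/EBP motif TTGCNNAA in IL6 and CXCL2 (10.5%). A match is a description of the letters, not of binding. The stretches around the NF-κB matches are shown because this motif is the element the members had in common. Each runs for 60 bases 5′ to 3′ on the gene's own strand, with the match in capitals, and the position of the first matched base is given relative to the start.
IL6 (chr7:22727102-22727161, plus strand, match at -72): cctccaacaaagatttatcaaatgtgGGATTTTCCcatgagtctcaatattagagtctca
CXCL8 (chr4:73740452-73740511, plus strand, match at -91): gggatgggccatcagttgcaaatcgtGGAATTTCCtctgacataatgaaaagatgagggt
CXCL5 (chr4:73998734-73998793, minus strand, match at -90): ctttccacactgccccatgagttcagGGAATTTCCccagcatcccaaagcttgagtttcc
CXCL1 (chr4:73869289-73869348, plus strand, match at -78): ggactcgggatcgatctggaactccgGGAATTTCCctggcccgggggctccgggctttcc
CXCL2 (chr4:74099239-74099298, minus strand, match at -77): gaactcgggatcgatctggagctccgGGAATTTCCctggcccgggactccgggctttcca
CXCL3 (chr4:74038734-74038793, minus strand, match at -78): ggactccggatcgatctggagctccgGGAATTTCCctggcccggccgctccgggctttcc
IL32 (chr16:3065279-3065338, plus strand, match at -98): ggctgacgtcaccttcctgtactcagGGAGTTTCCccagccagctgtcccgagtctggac
CCL20 (chr2:227813737-227813796, plus strand, match at -79 read on the opposite strand): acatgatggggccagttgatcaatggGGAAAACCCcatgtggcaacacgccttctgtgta
Aligned on the match without gaps, the stretches of CXCL1 and CXCL3 were the same at 56 of 60 bases, CXCL1 and CXCL2 at 49, and CXCL2 and CXCL3 at 48. With this likeness the 3 are not separate cases of the motif. These 3 genes also held a further match, GGGCTTTCC, at -53, and IL32 held GGACTTTCC at -68. CXCL3 was called higher with IFN-γ and CXCL1 was not, with the values given next. A link between these stretches and the responses was not tested.

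IFN-γ treatment raised 8 of the 10 genes and lowered 1, CCL2, past an adjusted p under 0.05 and a fold change over 2 in size (edgeR quasi-likelihood test with Benjamini-Hochberg adjustment over all 15066 genes tested). Across all genes, 10.3% were called higher and 17.2% lower in this comparison. The members' median log2 fold change was 2.28 (the same with IL6 at its bound), against -0.06 over all genes. IL6 and CCL20 passed the expression filter only through their IFN-γ libraries, so that they had to differ. Of the other 8 members, 6 rose and 1 fell, with a median of 2.07. The larger rises were those of CXCL2, IL32, CXCL3 and CXCL8.

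CXCL2 (ENSG00000081041, chr4:74097040-74099196) had 142 and 88 untreated counts, against 880 and 1182 with IFN-γ. The groups were far apart, and the level went from 4.14 ± 0.788 to 47.0 ± 0.734 CPM, a log2 fold change of 3.49 (SE 0.14, adjusted p = 1.53e-10). CXCL3 (ENSG00000163734, chr4:74036589-74038807), its neighbour on the chromosome, had 75 and 79 counts before and 306 and 438 after treatment. It rose from 2.85 ± 0.520 to 16.9 ± 1.02 CPM, a log2 change of 2.58 (SE 0.17, adjusted p = 2.26e-08). CXCL8 (ENSG00000169429, chr4:73740519-73743716) encodes interleukin 8, the classical neutrophil attractant. Without treatment its counts were 49 and 41, those under IFN-γ were 189 and 242, and its level rose from 1.65 ± 0.0344 to 9.86 ± 0.180 CPM. This log2 change of 2.58 (SE 0.17, adjusted p = 1.85e-08) was equal in size to that of CXCL3.

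CXCL5 (ENSG00000163735, chr4:73995642-73998677), an epithelium-derived neutrophil attractant, rose less in proportion and most in absolute level. Both untreated libraries (4489 and 3186 counts) lay below both IFN-γ libraries (7112 and 11076 counts). Its level went from 139 ± 13.3 to 410 ± 49.2 CPM, a log2 change of 1.56 (SE 0.09, adjusted p = 4.97e-09). Of CXCL5's exon bases, 17.3% lie in exons of a gene on the opposite strand, and the strand setting of the counting is not given. CXCL1 (ENSG00000163739, chr4:73869393-73871308) did not follow the other ELR chemokines. Its untreated counts of 82 and 59 stood against 37 and 37 with IFN-γ, so that both treated libraries were the lower ones. The log2 difference was -0.60 (95% interval -1.15 to -0.04, adjusted p = 0.0538) and was not called. CXCL1, CXCL2 and CXCL3 are close in sequence, and 5.33%, 10.1% and 5.26% of their 50-base exon windows occur in another gene. None of their windows as long as a read does.

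IL6 (ENSG00000136244, chr7:22725884-22732002), the inducer of the acute-phase response, was at 0 counts in each untreated library, whereas IFN-γ gave 48 and 66. This corresponded to 2.59 ± 0.0835 CPM, at least 23.4-fold higher than in untreated cells when these are set at the floor of 3 counts per library. STEAP1B and IL6-AS1 on the opposite strand overlap 19.6% of its exon bases, and the strand setting of the counting is not given in the sources used here. LIF (ENSG00000128342, chr22:30240453-30246759), a cytokine of the same receptor family, was already abundant. Its 1868 and 1429 untreated counts compared with 3300 and 4346 under IFN-γ. The level of LIF rose from 60.0 ± 2.55 to 174.5 ± 0.294 CPM, a log2 change of 1.54 (SE 0.07, adjusted p = 3.77e-10). IL32 (ENSG00000008517, chr16:3065297-3082192) had 134 and 165 counts before and 1123 and 1141 after IFN-γ. Its rise from 5.58 ± 1.62 to 52.6 ± 9.51 CPM was a log2 change of 3.25 (SE 0.16, adjusted p = 1.16e-09). Other genes overlap 21.5% of IL32's exon bases.

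The CC chemokines went in opposite directions. CCL2 (ENSG00000108691, chr17:34255274-34257208) had 168 and 151 counts without treatment but 33 and 43 with IFN-γ. Both treated libraries were far below both untreated ones, and the level fell from 5.85 ± 0.418 to 1.74 ± 0.0101 CPM, a log2 change of -1.75 (SE 0.18, adjusted p = 1.29e-06). CCL20 (ENSG00000115009, chr2:227805739-227817564) was sparse, with 6 and 3 untreated counts and 14 and 15 under IFN-γ. Its rise was a log2 change of 1.98 (95% interval 0.76 to 3.21, adjusted p = 0.00712). With DESeq2 the adjusted p of CCL20 was 0.0663, and the call was lost.

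**Figure D2:**
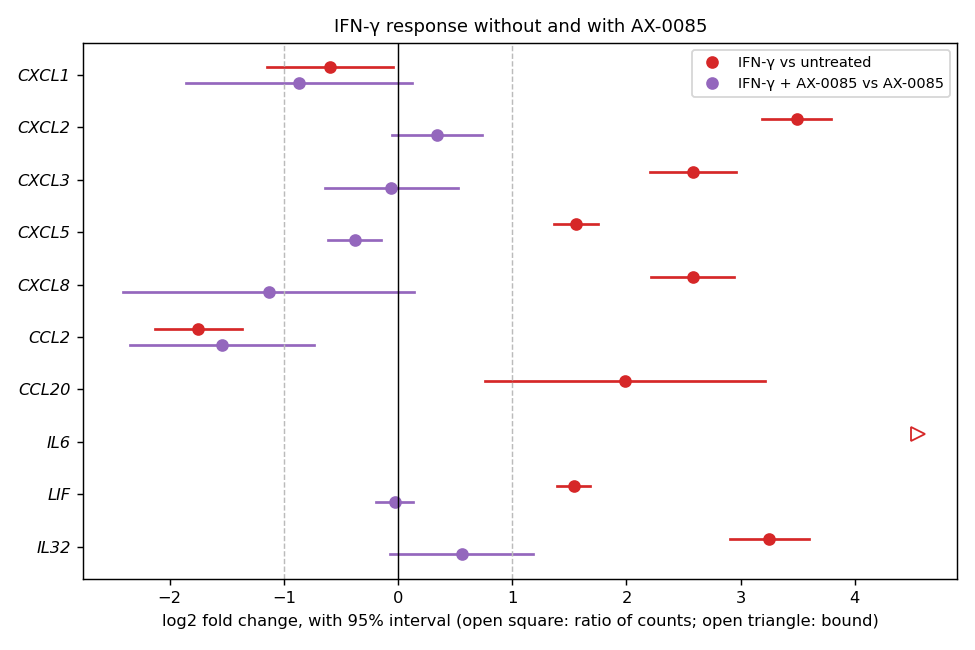
Log2 fold changes (horizontal axis) of the 10 genes with IFN-γ, without AX-0085 (red) and in its presence (purple). Dots and lines are edgeR estimates with 95% intervals, the open triangle is the lower bound for IL6 (4.55 on the log2 scale), and dashed lines mark a 2-fold change. Of the red estimates CXCL1 and CCL2 alone lie below 0, and of the purple ones that of CCL2 alone was called.

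Once AX-0085 had been given to cells exposed to IFN-γ, all 10 members were called lower than with IFN-γ alone. Across all genes 8.28% were called lower and 16.5% higher. The members' median log2 fold change was -3.85, with IL6 at its bound as well, against 0.03 over all genes. All 8 members that passed the filter through several groups were called lower, with a median of -3.45. CXCL8 showed the largest of the fitted falls of these 8. Its counts were 189 and 242 under IFN-γ, against 4 and 2 under the combination, just above the floor in one library and below it in the other. The log2 change of CXCL8 was -6.40 (SE 0.28, adjusted p = 4.45e-10). IL6 went from 48 and 66 counts to 0 and 0, at least 22.5-fold lower. CCL20 went from 14 and 15 counts to 1 and 0, a ratio of 35.4 with a counting interval from 5.87 to 1447 (edgeR adjusted p = 2.75e-04).

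The abundant members remained well measured with both agents. CXCL5 had 699 and 470 counts, and its level was 21.7 ± 0.865 CPM against 410 ± 49.2 with IFN-γ alone, a log2 change of -4.24 (SE 0.10, adjusted p = 3.26e-12). IL32 had 74 and 51 counts at 2.33 ± 0.0520 CPM, a log2 change of -4.49 (SE 0.18, adjusted p = 2.63e-10). LIF, with 1051 and 668 counts at 31.8 ± 2.53 CPM, changed by -2.45 on the log2 scale (SE 0.07, adjusted p = 1.32e-11). LIF and CXCL1 thus had the smallest fitted falls among the 10 genes. CXCL2 had 155 and 81 counts and changed by -3.42 (SE 0.14, adjusted p = 2.47e-10), and CXCL3 had 57 and 25 and changed by -3.47 (SE 0.19, adjusted p = 4.58e-09). Although neither rose with IFN-γ, CXCL1 and CCL2 also fell when AX-0085 was added. CXCL1 went from 37 and 37 counts to 11 and 6, a log2 change of -2.40 (SE 0.38, adjusted p = 9.05e-05). CCL2 went from 33 and 43 counts to 8 and 5, a log2 change of -2.81 (SE 0.32, adjusted p = 4.26e-06).

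AX-0085 without IFN-γ lowered 5 of the members, CXCL8, CXCL1, CXCL5, CCL2 and IL32, and raised none. Across all genes 5.62% were called lower and 6.41% higher. The 8 members present in several groups had a median log2 change of -1.96, against 0.01 over all genes. CCL2 fell from 168 and 151 counts to 20 and 17, which was 0.718 ± 0.111 CPM and a log2 change of -3.02 (SE 0.20, adjusted p = 7.33e-08). CXCL8 had 4 and 9 counts with AX-0085, below both untreated libraries, and its log2 change was -2.69 (SE 0.32, adjusted p = 1.46e-05), or -3.33 without AX-0085 replicate 2. CXCL5 had 660 and 805 counts at 28.3 ± 2.83 CPM, a log2 change of -2.30 (SE 0.10, adjusted p = 1.91e-09). The falls of CXCL1, to 20 and 10 counts (log2 change -2.13, SE 0.30, adjusted p = 6.02e-05), and of IL32, to 38 and 44 counts (-1.79, SE 0.25, adjusted p = 4.49e-05), were the smaller called ones, although that of CXCL1 was -2.75 without AX-0085 replicate 1.

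The remaining members were lower with AX-0085 by less than 2-fold or were not distinguishable from untreated cells. LIF had 820 and 864 counts at 32.6 ± 0.103 CPM, with a log2 difference of -0.88 (95% interval -1.03 to -0.73, adjusted p = 3.77e-07), which was below the fold threshold. CXCL3 had 33 and 49 counts and a log2 difference of -0.83 (95% interval -1.35 to -0.31, adjusted p = 0.0103). It was called without untreated replicate 1 (-1.005) or without AX-0085 replicate 2 (-1.10). CXCL2, with 97 and 81 counts against 142 and 88, differed by -0.28 (95% interval -0.67 to 0.12, adjusted p = 0.221). CCL20 had 0 and 3 counts against 6 and 3, an untreated-to-AX-0085 ratio of 2.83 with a counting interval from 0.706 to 16.2. IL6 had 1 and 0 counts, and both groups were at or under the floor.

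**Figure D3:**
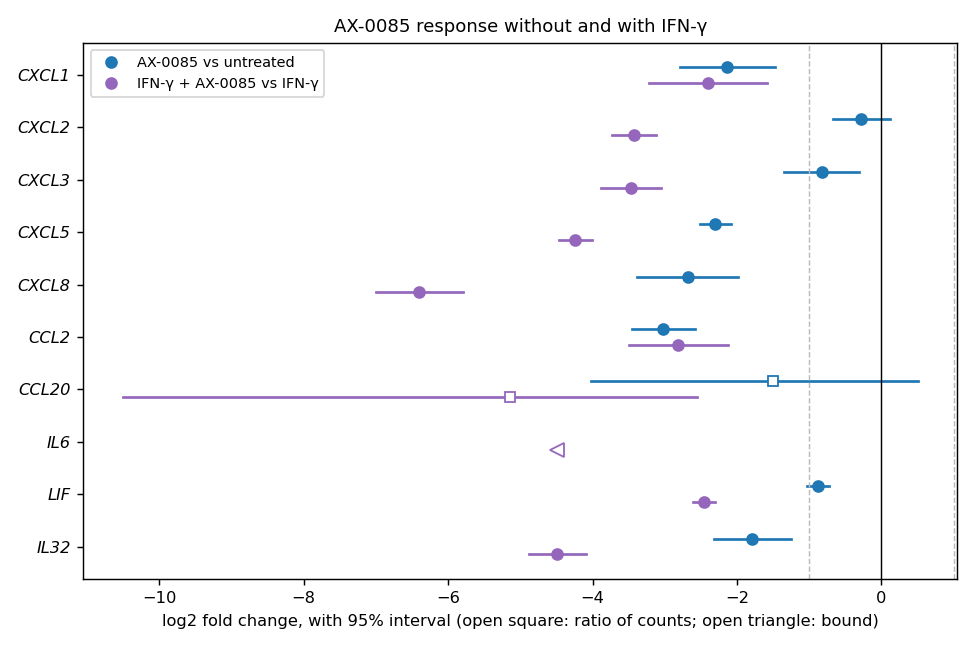
Log2 fold changes (horizontal axis) of the 10 genes with AX-0085, without IFN-γ (blue) and in IFN-γ-treated cells (purple). Dots and lines are edgeR estimates with 95% intervals, open squares are ratios of counts with counting intervals, the open triangle is the bound for IL6, and dashed lines mark a 2-fold change. CXCL1, CCL2 and CCL20 have overlapping intervals in the 2 settings, those of CCL20 being counting intervals. The intervals of CXCL2, CXCL3, CXCL5, CXCL8, LIF and IL32 are apart.

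When IFN-γ-treated cells were compared in the presence of AX-0085, that is, both agents against AX-0085 alone, no member was called higher and 1, CCL2, was called lower. Across all genes 1.79% were called higher and 1.73% lower. CCL2 had 20 and 17 counts with AX-0085 and 8 and 5 with both, a log2 change of -1.54 (95% interval -2.35 to -0.74, adjusted p = 0.00640). CCL2 was therefore lower with IFN-γ in cells given AX-0085 too. IFN-γ had acted for 24 h before AX-0085 was added, and the part of that time in the difference was not tested. For the most abundant members the intervals were narrow. LIF differed by -0.03 (95% interval -0.19 to 0.13, adjusted p = 0.782) and CXCL5 by -0.38 (95% interval -0.61 to -0.15, adjusted p = 0.0153), so that any rise of LIF in the presence of AX-0085 was below 0.13 on the log2 scale within the 95% interval. CXCL2 differed by 0.34 (-0.05 to 0.74), IL32 by 0.56 (-0.07 to 1.18) and CXCL3 by -0.06 (-0.64 to 0.53). The intervals of CXCL8 (-1.13, from -2.41 to 0.14) and CXCL1 (-0.86, from -1.85 to 0.13) were wide at these counts. IL6 and CCL20 were at or under the floor in both groups.

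The difference between the IFN-γ responses with and without AX-0085 was tested as an interaction in the same model. It was called for 7 members, all with a lower response in the presence of AX-0085, while 6.46% of all genes were called lower and 12.1% higher. Of these 7, IL6 passed the expression filter through its IFN-γ libraries alone. Among the 8 members that passed it through several groups, 6 were called lower, with a median of -2.29 against 0.05 over all genes. The interaction was -3.71 for CXCL8 (SE 0.63, adjusted p = 2.90e-04, or -3.07 without AX-0085 replicate 2), -3.15 for CXCL2 (SE 0.24, adjusted p = 2.89e-07) and -2.64 for CXCL3 (SE 0.33, adjusted p = 2.32e-05). For the remaining ELR chemokines it was -1.94 for CXCL5 (SE 0.14, adjusted p = 1.89e-07) and -0.27 for CXCL1 (95% interval -1.39 to 0.85, adjusted p = 0.692). IL32 had an interaction of -2.70 (SE 0.35, adjusted p = 3.32e-05) and LIF of -1.57 (SE 0.10, adjusted p = 6.03e-08). CCL2 showed no called interaction (0.21, 95% interval -0.84 to 1.25, adjusted p = 0.774), and that of CCL20 was -3.40 (95% interval -6.90 to 0.09, adjusted p = 0.0975). The call of IL6 (adjusted p = 0.0116) rested on 1 count among the 4 libraries with AX-0085. Without AX-0085 replicate 1, which held that count, the adjusted p of IL6 was 1.

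Cells given both agents were also compared with untreated cells. No member was called higher (7.51% of all genes) and 5 were called lower (7.23% of all genes), namely CCL2, CXCL8, CXCL1, CXCL5 and IL32. IL6 was at 0 counts in both groups and could not be called. All 5 are among the 8 members that passed the filter through several groups, whose median was -1.96, against 0.01 over all genes. CCL2 stood furthest below untreated cells, at 8 and 5 counts against 168 and 151, a log2 change of -4.56 (SE 0.25, adjusted p = 7.72e-09). CXCL8 changed by -3.82 (SE 0.38), CXCL1 by -3.00 (SE 0.34), CXCL5 by -2.68 (SE 0.10) and IL32 by -1.23 (SE 0.23). The call of IL32 was lost without untreated replicate 2 (-0.92). CXCL2 was close to its untreated level, with a difference of 0.07 (95% interval -0.31 to 0.44, adjusted p = 0.770). LIF differed by -0.91 (SE 0.07, adjusted p = 2.05e-07) and CXCL3 by -0.89 (SE 0.24, adjusted p = 0.00645), both short of the fold threshold. CXCL3 was called without untreated replicate 1 (-1.03) or without replicate 1 of the group given both agents (-1.28). CCL20 had a ratio of untreated to both of 8.79 with a counting interval from 1.22 to 385 (edgeR adjusted p = 0.0501). The comparisons above share libraries with one another and are not independent.

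The make-up of the neutrophil-attracting CXC chemokine RNAs changed along with their sum. Summed over the 5 genes, the level was 63.9 ± 5.93 CPM per kilobase in untreated cells, 15.3 ± 0.750 with AX-0085, 214.8 ± 20.9 with IFN-γ and 12.9 ± 1.30 with both. CXCL5 made up 89.4% ± 0.236 of the sum in untreated cells, 78.4% ± 1.79 with IFN-γ, 75.7% ± 3.88 with AX-0085 and 69.2% ± 4.19 with both. Its share was thus highest in both untreated libraries. CXCL2 made up 4.62% ± 0.454, 15.7% ± 1.28, 16.2% ± 3.49 and 23.6% ± 2.78 in the same order. Hence the share of CXCL2 was larger in each treated group, although its level was not called higher with AX-0085 or with both agents. CXCL1 made up 2.94% ± 0.0207 in untreated cells and 0.597% ± 0.171 with IFN-γ. With transcript lengths in place of exon bases, the share of CXCL5 was 85.7%, 71.97%, 68.9% and 61.9% in that order. The smallest two-sided p that an exact permutation test allows for 2 libraries in each of 2 groups is 0.333, so these shares are given without a test.

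**Figure D4:**
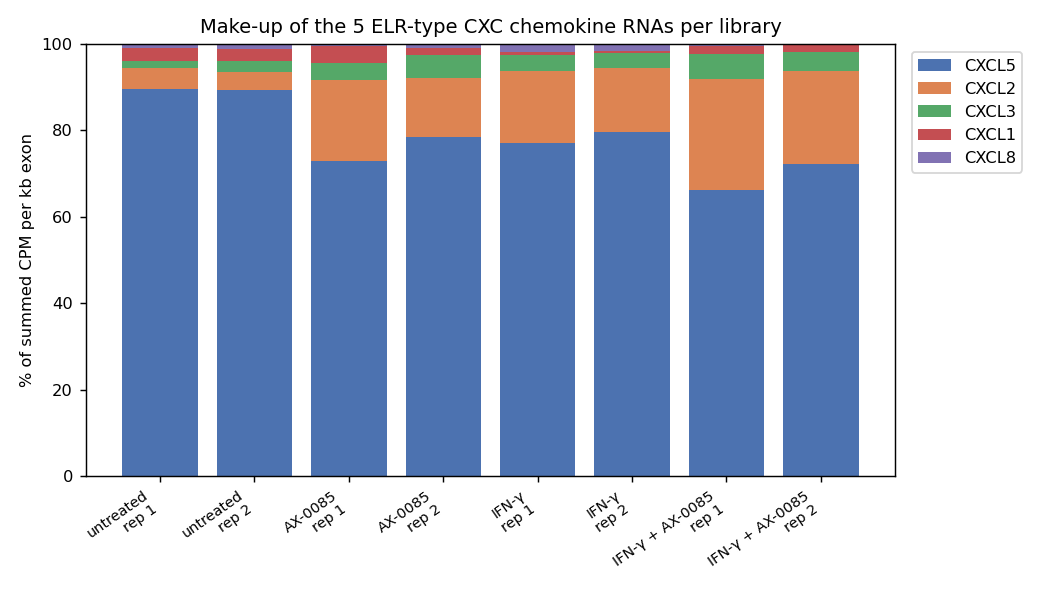
Share (%, vertical axis) of each ELR-type CXC chemokine in the summed CPM per kilobase of exon of the 5 genes, in each of the 8 libraries. CXCL5 takes 89.4% on average in untreated cells and 69.2% in cells given both agents, and CXCL2 takes most of the rest in each library outside the untreated group.

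Of 8 receptor genes for these ligands, the IL6-family receptors IL6R, IL6ST and LIFR were tested. CXCR1 and CCR2, which no other gene overlaps, had no counts, and CXCR2 had 1 count over all 8 libraries. CCR6 and ACKR1 were also at 0, but 99.9% and 100% of their exon bases lie within other genes, so that they are not measured here. None of the 3 tested receptors was called with IFN-γ. IL6R, the ligand-binding chain for IL6, had 330 and 271 untreated counts, 701 and 626 with AX-0085, 153 and 208 under IFN-γ alone, and 631 and 449 under the combination. Unlike the ligands it was higher in both AX-0085 groups, rising with AX-0085 by 1.23 on the log2 scale (SE 0.10, adjusted p = 3.02e-07) and by 1.29 in IFN-γ-treated cells (SE 0.10, adjusted p = 1.79e-07). IL6ST, the shared signalling chain of IL6 and LIF, differed by 0.65 with IFN-γ, below the fold threshold, and 50.1% of its exon bases lie within other genes.

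Other secreted factors showed a pattern like that of the members in part. Of 27 such genes, 20 had counts and 11 were tested. Of these 11, 5 rose and 1 fell with IFN-γ (median 0.83), against 10.3% and 17.2% of all genes. All 5 that rose, IL11, CX3CL1, GDF15, IL7 and IL1A, were called lower after AX-0085 was added. Across all genes, 8.28% were called lower and 16.5% higher in that comparison. Both comparisons use the same IFN-γ libraries and are not independent. IL1A was sparse, with 7 and 0 untreated counts and 13 and 8 under IFN-γ (edgeR adjusted p = 0.0452). It had 7 and 12 counts with AX-0085 and 1 and 0 with both. IL11, a cytokine that also signals through gp130, had 723 and 594 untreated counts and 9039 and 11930 under IFN-γ. With AX-0085 it had 219 and 220, and with both agents 617 and 433. Its log2 change was 4.31 with IFN-γ (SE 0.06, adjusted p = 2.50e-14), -4.61 after addition of AX-0085 (SE 0.06, adjusted p = 2.56e-14), and its level with IFN-γ was 479 ± 1.66 CPM. GDF15, a stress-induced member of the TGF-β family, rose by 2.43 and then fell by 2.23 on the log2 scale, and CX3CL1, a membrane-bound chemokine, rose by 2.74 (3.46 without untreated replicate 2) and changed by -2.37. The chemokines usually most typical of the IFN-γ response, CXCL9, CXCL10 and CXCL11, and also CCL5, CCL7 and CCL8, had 0 counts in all 8 libraries and are not measured here. Of their exon bases, 90.9% for CXCL9 and 100% for CXCL10, CXCL11 and CCL5 lie within the span of another gene in GENCODE 44. JUNB and MIF, which most cells express, were also at 0 and are likewise covered to 100%, so that a 0 in a gene covered in this way says nothing of its expression. No other gene overlaps CCL7 or CCL8, so this limit does not apply to their 0 counts. CXCL13, a B-cell attractant and the only measured gene of that list, had 64 and 63 untreated counts, 83 and 102 under IFN-γ, 139 and 183 with AX-0085, and 233 and 200 under the combination. Unlike the members, it was called higher with AX-0085 (log2 change 1.42, SE 0.18, adjusted p = 1.85e-05) and with both agents against untreated cells (1.81, SE 0.17, adjusted p = 1.18e-06).

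Among 20 regulators of cytokine transcription and signalling, 19 were tested, of which 9 rose and 3 fell with IFN-γ (median 0.98). After addition of AX-0085, 10 of the 19 were lower and 1 was higher (median -1.06). Across all genes, 10.3% were called higher and 17.2% lower with IFN-γ, and 8.28% lower and 16.5% higher after AX-0085. The list moved in both directions. FOSL1, an AP-1 subunit, had 1260 and 1048 untreated counts, 8316 and 10010 with IFN-γ alone, 126 and 121 with AX-0085, and 282 and 224 under the combination. Its log2 change was 3.32 with IFN-γ (SE 0.07, adjusted p = 6.19e-13) and -5.47 after addition of AX-0085 (SE 0.08, adjusted p = 6.07e-14). ATF3 rose by 4.69 and changed by -2.96 in these comparisons, JUN by 2.52 and -3.08, and SOCS3, a feedback inhibitor of gp130 signalling, by 3.01 and -3.28. FOS, another AP-1 subunit, went the opposite way, by -1.61 with IFN-γ and by 2.58 after AX-0085. Of the NF-κB genes in the list, NFKB2 changed by 1.88 and -2.99 in these comparisons, RELB by 1.59 and -2.63, and TNFAIP3, an inhibitor of NF-κB signalling, by 1.14 and -1.56, all called. RELA was called with IFN-γ (1.17) and not after AX-0085 (-0.76), and NFKB1 after AX-0085 (-1.12) and not with IFN-γ (0.98). NFKBIA, which encodes an inhibitor of NF-κB, was called in neither comparison, with differences of 0.29 and 0.04. Others of this group went the opposite way to NFKB2 and RELB. NFKBIZ was called lower with IFN-γ (-1.29) and was not called after AX-0085 (0.83). BCL3 (-0.56 and 0.63) and REL (-0.34 and 0.34) were called in neither comparison. FOS, the NF-κB genes, TNFAIP3, NFKBIA, NFKBIZ, BCL3 and CXCL13 are named after their values were seen. Of 10 tested regulators of mRNA stability, 2 rose with IFN-γ, ZFP36L1 by 1.33 and ZFP36 by 1.02 (median 0.31). ZFP36L1 alone was called lower after AX-0085 (-1.70), and 1 of 10 is near the 8.28% of all genes. The call of ZFP36 was lost without untreated replicate 1 (0.98) and with scaling by library size alone (0.91).

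**Figure D5:**
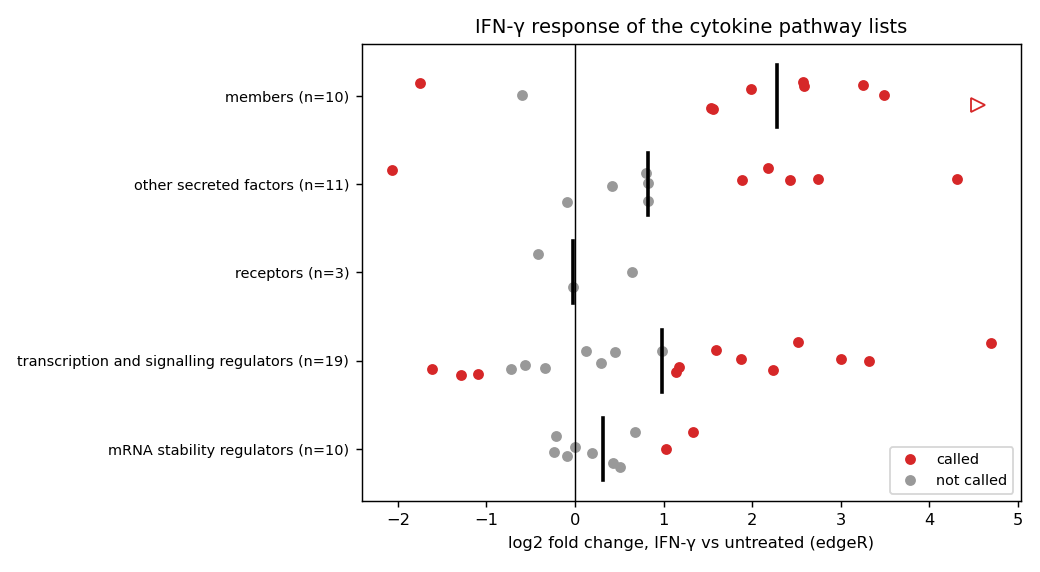
Log2 fold changes with IFN-γ against untreated cells (horizontal axis) of the members and of 4 lists of related genes, red where called and grey where not. Vertical bars are list medians and the open triangle is IL6 at its lower bound. The members' median is 2.28, and those of the other lists are 0.83 (other secreted factors), -0.03 (receptors), 0.98 (regulators) and 0.31 (mRNA stability genes). IL6 and CCL20 passed the expression filter only through their IFN-γ libraries, and the median of the other 8 members is 2.07. Members and lists were chosen with earlier results of these data known, so the medians are not a test.

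Finally, the gene most alike to each member was sought by Pearson's r of log2 CPM over the 8 libraries, among 10170 genes whose log2 CPM averaged 2 or more. CXCL5 was closest to NCEH1 (r = 0.998), LIF to DNTTIP2 (0.998), CXCL2 to SRGN (0.996), CXCL3 to SPRY2 (0.995), CXCL8 to ZNG1C (0.997), IL32 to U2AF1 (0.997) and IL6 to METTL16 (0.998). With 4 groups such values are reached by many genes, between 308 and 647 above 0.95 for these 7. CXCL1, closest to CAMTA1 (r = 0.987), CCL2, closest to PAIP2 (0.996), and CCL20, closest to AGFG1 (0.991), had fewer, namely 75, 160 and 58. The libraries share groups, so these values describe likeness of pattern only. IL6 had at most 1 count outside its IFN-γ libraries, so its r sets those libraries against the rest. CCL20 had at most 15 counts in any library. The part of counting noise in its r and in its lower number of like genes was not tested.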

How the data were processed

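RNA of A549 cells was sequenced as read pairs from 8 TruSeq Stranded mRNA libraries (4 groups of 2, grouped by the sample labels). Per the labels and the study's methods, the authors trimmed reads with Trim Galore 0.6.7, mapped them to GRCh38 with STAR 2.7.9a and counted them per gene with featureCounts of Rsubread 2.6.4. The deposited values are raw counts per Ensembl gene without normalization. The annotation release, strand setting and handling of reads shared by genes are not given in the sources used here. Reads in overlapping genes can therefore be lost or split. Positions and overlaps were taken from GENCODE 44, in which 60463 identifiers matched.

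Counts were filtered (filterByExpr), TMM-scaled and tested with the quasi-likelihood test of edgeR 4.0.16 (R 4.3.3), all 8 libraries in 1 model of 4 groups, for 6 contrasts. A gene was called where its p, adjusted over 15066 genes by Benjamini-Hochberg, was under 0.05 and its log2 fold change exceeded 1 in either direction. The common biological coefficient of variation was 0.0609. Standard errors were derived from the F statistic. Total counts ranged from 20672828 to 29978251 per library, and limits of 3 counts cover counting error only. The procedure was tested on simulated data.

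The members, gene lists and motifs were chosen with earlier results of these data known. Named genes were the 10 members, CD274 and, for each list, up to 4 called genes with the largest IFN-γ change. Alternatives tried were DESeq2 1.42.0 (Wald test), RLE factors, library size alone, a filter of 1 count or of 10 counts in every library, fitting the compared groups alone, no fold threshold, a replicate block, and leaving out each library. A block with the untreated numbers swapped and the use of transcript lengths were added after seeing the data. Protein sequences were not used here.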

Additional observations from a re-analysis of the deposited data

Results flagged for a closer look

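The IFN-γ response differed with and without AX-0085 for 7 of the 10 members by the interaction term of the edgeR model (Benjamini-Hochberg adjustment, given in log2 as the response with AX-0085 minus that without it). All 7 were called lower, while 6.46% of all genes were called lower and 12.1% higher. The differences were -3.71 for CXCL8, -3.15 for CXCL2, -2.70 for IL32, -2.64 for CXCL3, -1.94 for CXCL5 and -1.57 for LIF. The call of IL6, with a value of -11.36, rests on a single count among the 4 libraries with AX-0085. Its adjusted p was 1 without the library that held this count, its size depends on the prior count of the fit, and it passed the expression filter through its IFN-γ libraries alone. Of the 8 members that passed the filter through several groups, 6 were called. Groups of 2 libraries are too small for a search for outlying samples.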

How the results depend on the processing

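Of 856 recomputed log2 values of the members, 839 kept their direction and call. With at least 10 counts in every library only 5 members could be tested, and the members called fell to 5 with IFN-γ, 5 with AX-0085 added to IFN-γ, 2 with AX-0085 alone, 0 for both against AX-0085 and 2 for both against untreated. With the adjusted p alone, 2 members instead of 1 passed for both against AX-0085. For AX-0085 alone and for both against untreated, 7 passed instead of 5. Leaving out 1 library changed the sign of 5 uncalled values: CXCL2 in both against untreated (-0.16 to 0.33), CXCL3 (-0.47 to 0.21) and LIF (-0.091 to 0.048) in both against AX-0085, and the interactions of CXCL1 (-0.72 to 0.35) and CCL20 (-5.66 to 0.27). That of CCL20 was called, at -4.31, without AX-0085 replicate 1, and CCL20 in both against untreated without either AX-0085 library. Scaling by library size alone shifted the median of all genes by -0.12 with IFN-γ, by 0.12 with AX-0085 added to it and by 0.12 in the interaction, and changed no member's call. The replicate numbers were not shown to pair libraries (correlations of deviations from -0.109 to 0.0873); with the replicate block the members called stayed at 9 with IFN-γ, 10 with AX-0085 added to it, 5 with AX-0085 alone, 1 and 5 for both against AX-0085 and against untreated, and 7 in the interaction, as they did with the untreated numbers swapped. Depth limits IL6 and CCL20, and CXCL8 with AX-0085, to a few counts.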
